A study of Mus musculus with 2 samples.

Results

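N6-methyladenosine (m6A) on 10 genes that mark the cells lining blood vessels was examined in pancreatic islets of 2-week-old 129sv mice. The genes were Pecam1, Cdh5, Kdr, Flt1, Tek, Tie1, Plvap, Esam, Egfl7 and Emcn. They were taken by name from a list of m6A sites on messenger RNA, and every row carrying one of the names, or the gene identifier that goes with it, was kept. This gave 17 of the 8987 sites in the list, on 7 of the 10 genes; the same 17 rows were found by name and by identifier, and 0 other rows gave a member as a synonym. Esam, Tek and Tie1 had no site in the list.

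The sites came from a comparison of an m6A immunoprecipitate (MeRIP) with its input. Fragmented islet RNA was pulled down with an antibody against m6A and sequenced, and RNA that was not pulled down was sequenced beside it. Both libraries were made from 129sv mouse islets at 2 weeks of age, with 1 immunoprecipitate library and 1 input library and no other treatment or genotype in the labels. No replicate exists, so no value below has an error or a test, and the labels do not say how many animals gave the islets. Neither library depth nor the level of any gene in the input is known here, since no reads were used.

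Islets are among the most densely vascularised tissues, and their capillaries are lined by a fenestrated endothelium through which hormones reach the blood. Endocrine cells release vascular endothelial growth factor (VEGF), which acts on receptor tyrosine kinases of the endothelium, and a second receptor pair, Tek and Tie1, responds to angiopoietins and steadies the vessel. m6A is placed on nascent transcripts by a methyltransferase complex, is often found in long internal exons and near the stop codon, and is read by proteins that act on splicing, translation and decay. Endothelial cells are a minority of islet cells, so in whole-islet RNA a low number of cells and a low RNA content per cell cannot be told apart.

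Each site has 3 values in the authors' deposited table, which are used here to describe and rank sites within that list. The deposited fold is the linear ratio of immunoprecipitate over the background expected from the input. The deposited score grows as the peak caller's p shrinks: it is 10 times the negative log10 of p, and 100 corresponds to 1e-10. The deposited false discovery rate (FDR) is in percent and is high throughout the list: it is 100% for 74.3% of the sites and never below 27.16%. Percentiles below are ranks among all 8987 sites, or among the 4953 genes with a site where the strongest site of each gene is meant. Coordinates are GRCm38, counted from 1.

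Of the 9 sites on genes with a start in the RefSeq windows, 2 began within 1 base of an annotated transcription start. The sites on Pecam1, Cdh5 and Plvap could not be placed in this way. The RefSeq sequences around the 2 starts (GRCm38.p6) are shown because the site edge falls inside them. Each runs 5′ to 3′ on the strand of the gene, from 250 bases before the start to 30 bases after it, and capitals mark the bases that lie inside the m6A site. The Flt1 window is chr5:147725982-147726261 on the minus strand, and the Egfl7 window is chr2:26583615-26583894 on the plus strand, at the second of 3 annotated starts.
Flt1: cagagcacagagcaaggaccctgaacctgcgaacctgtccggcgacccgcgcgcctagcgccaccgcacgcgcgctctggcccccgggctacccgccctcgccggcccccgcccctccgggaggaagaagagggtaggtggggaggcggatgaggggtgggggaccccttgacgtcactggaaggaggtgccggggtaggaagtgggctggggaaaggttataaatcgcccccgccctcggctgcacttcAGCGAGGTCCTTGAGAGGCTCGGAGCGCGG
Egfl7: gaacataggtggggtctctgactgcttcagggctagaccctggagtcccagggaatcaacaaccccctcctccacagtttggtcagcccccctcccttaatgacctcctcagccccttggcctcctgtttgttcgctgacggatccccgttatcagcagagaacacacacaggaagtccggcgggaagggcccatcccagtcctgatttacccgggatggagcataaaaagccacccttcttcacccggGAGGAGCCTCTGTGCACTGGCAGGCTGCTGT

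A site was found on 7 of the 10 endothelial genes (70.0%), against 22.2% of all 21900 protein-coding genes of the annotation. Among protein-coding genes whose genomic span lies within the range of the 10 genes, from 10231 to 164835 bases, the share was 29.1%. Neither background is matched on input level, and a gene with no RNA in the islets yields nothing to pull down. These shares therefore do not compare methylation per transcript. All 7 genes kept a site when only folds of at least 5 were counted, against 19.7% of protein-coding genes, when only a p of at most 1e-10 was, against 15.4%, and when only sites wholly within the gene span were, against 21.0%. Only Pecam1, Cdh5 and Plvap kept one when sites with an FDR below 100% were counted, against 7.29%. The 7 genes carried 2.43 sites each on average, against 1.81 over all genes with a site, and 5 of the 7 had 2 or more, against 40.3% of all genes with a site.

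The sites of the endothelial genes were of moderate fold. Their folds ran from 3.77 to 9.54 with a median of 5.99, against a median of 7.13 and quartiles of 5.47 and 9.87 over all sites. Of the 17, 12 lay below the median of the list, 6 below its lower quartile and 0 above its upper quartile. Their scores lay higher in the list than their folds did: 10 of the 17 exceeded the median score of 132.33. Their median length was 185 bases, against 211 over all sites. An FDR below 100% was given to 4 of the 17 sites, on Pecam1, Cdh5 and Plvap, and 13 (76.5%) had an FDR of 100%, close to the share in the whole list.

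**Figure D1:**
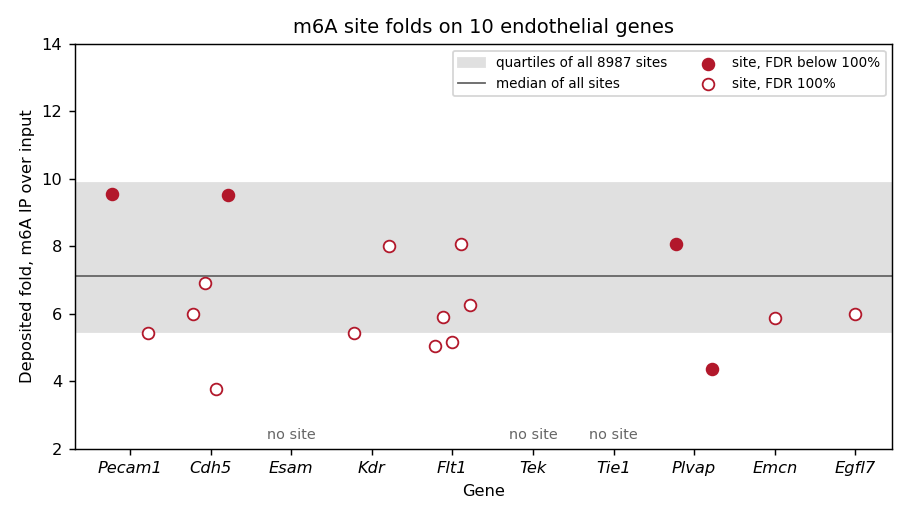
Deposited fold of m6A immunoprecipitate over input (y axis, linear ratio) for every site on the 10 endothelial genes (x axis), with the sites of a gene ordered by coordinate; filled points have an FDR below 100%, open points an FDR of 100%. The band spans the quartiles of all 8987 sites, 5.47 to 9.87, and all 17 points lie below its upper edge.

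Among the adhesion molecules of endothelial junctions, Pecam1 and Cdh5 had the strongest folds of the set and Esam had no site. Pecam1 (CD31), an immunoglobulin-family molecule that joins endothelial cells and is also made by platelets and leukocytes, had its stronger site near the middle of the gene. This site, at chromosome 11, 106688776 to 106689051, had a fold of 9.54, a score of 508.41 and an FDR of 73%. A second Pecam1 site, at 106699592 to 106699885, had a fold of 5.43, a score of 148.27 and an FDR of 100%. Both lay inside the gene, which spans 106654213 to 106715281, the nearer one 15396 bases from an outer end, so neither touched the ends of the gene. Ranked by strongest fold, Pecam1 stood at percentile 63.1 of genes with a site.

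Cdh5 (VE-cadherin), the cadherin of endothelial adherens junctions, had 4 sites, where 9.15% of the genes with a site have 4 or more. The longest and strongest covered 1798 bases at chromosome 8, 104142481 to 104144278, with a fold of 9.52, a score of 978.92 and an FDR of 58.26%. It ended 226 bases before the upper end of the gene (104101613 to 104144504), and its length lay at percentile 96.3 of all sites. The other 3 sites were 108, 223 and 251 bases long, against a median of 211 bases in the list. The first, at 104101625 to 104101732, began 12 bases inside the lower end of the gene with a fold of 6.01 and a score of 58.86. The next, at 104112880 to 104113102, had a fold of 6.91 and a score of 232.81. The last of them, at 104130907 to 104131157, had a fold of 3.77 and a score of 54, the lowest fold and score among the 17 sites. Cdh5 thus carried sites at both ends of its span, with 2380 bases covered in all (5.55% of the span). The annotation places a predicted gene, Gm29682, over the first of the 4 sites, and the list gives sites no strand, so reads of the 2 genes cannot be told apart there.

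Esam, another immunoglobulin-family molecule of endothelial tight junctions that platelets also make, had no site. With 10231 bases it is the shortest of the 10 genes. The nearest sites in the list lay 184056 bases below it, on Ccdc15, and 64975 bases above it, on Spa17.

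Of the VEGF receptors, Kdr and Flt1 carried sites, and Flt4 (VEGFR-3), which is not one of the 10 genes and is typical of lymphatic endothelium, had none. Kdr (VEGFR-2), the main signalling receptor for VEGF, had a site at chromosome 5, 75941810 to 75941961, with a fold of 8.01 and a score of 168.34. A second, at 75936839 to 75936938, had a fold of 5.44 and a score of 79.56. Kdr is read from high to low coordinates, and its sites lay 80.4% and 91.2% along the span from the start end, both in the last part of the gene. Its span of 46246 bases is near the middle of the 10 genes.

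Flt1 (VEGFR-1), which binds VEGF tightly, signals weakly and also exists as a soluble decoy, had 5 sites, the most of the 10 genes, where 4.87% of genes with a site have 5 or more. They were spread over 143461 of its 164835 bases. The highest fold was 8.07 (score 163.25), at chromosome 5, 147655097 to 147655211, 43.2% along the gene. The highest score was 187.51, with a fold of 6.25, on the site at 147725671 to 147726011. That site ended on base 147726011, the transcription start of Flt1 in the RefSeq windows, and covers the first 341 bases after it, whose beginning is in capitals above. The annotated gene span, which includes predicted transcripts, reaches 427 bases further. The remaining sites were grouped towards the 3′ end. They lay at 147582551 to 147582704 with a fold of 5.06, at 147588528 to 147588616 with a fold of 5.91, and at 147599539 to 147599671 with a fold of 5.18, or 87.2%, 83.6% and 76.9% along the gene. Their scores were 66.51, 100.39 and 80.03, below the list median of 132.33. With a p of at most 1e-10, 3 of the 5 Flt1 sites and 1 of the 2 Kdr sites remained. All 7 sites on Kdr and Flt1 had an FDR of 100%. The deposited table places Kdr and Flt1 together in the KEGG pathways of Rap1 and Ras signalling, focal adhesion and PI3K-Akt signalling. Pecam1 and Cdh5 share those of cell adhesion molecules and leukocyte transendothelial migration.

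The receptor pair of the angiopoietins had no site. Tek (Tie2), the receptor that binds angiopoietins, spans 135891 bases on chromosome 4 and is the second longest of the genes. Tie1, its partner without a firmly established ligand of its own, spans 18659 bases on the same chromosome. The nearest sites in the list around Tek lay 53301 bases below it on Ift74 and 174058 bases above it on Jun. Around Tie1 they lay 61642 bases below on Med8 and 135971 bases above on Ebna1bp2. Within the set, 11600 bases of Egfl7 held 1 site and 135891 bases of Tek held 0. The shortest gene, Esam (10231 bases), held 0 and the longest, Flt1 (164835 bases), held 5. Whether sites follow span within the set was not tested.

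Plvap, the protein of the diaphragms that close fenestrae and caveolae, had the highest score of the set. Its site at chromosome 8, 71507601 to 71508307, covered 707 bases with a score of 1854.81 and an FDR of 40.04%, and the score lay at percentile 97.1 of all sites. The fold of the same site was 8.08, at percentile 60.7. A second site, at 71511351 to 71511769, had a score of 300.19 and an FDR of 96.92% with a fold of 4.37, at percentile 9.1. It ended 37 bases before the upper end of the gene, which spans 71497753 to 71511806. The score of that second site lay at percentile 75.3, so in both Plvap sites the score ranked far above the fold. The 2 sites covered 8.01% of the span, the largest share among the 7 genes.

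**Figure D2:**
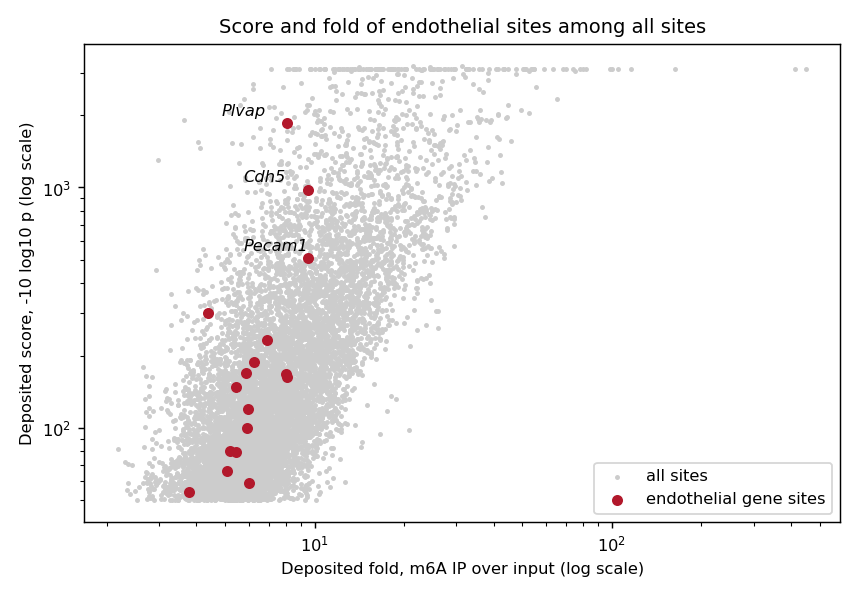
Deposited score (y axis, 10 times the negative log10 of p, log scale) against deposited fold (x axis, linear ratio on a log scale) for all 8987 sites in grey and the 17 sites of endothelial genes in red. The Plvap site with a score of 1854.81 stands above most sites of similar fold, and the horizontal row near the top is the score of 3100 that many sites share.

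The remaining genes had a single site each. Emcn (endomucin), a sialomucin of capillary and venous endothelium, had a site of 123 bases at chromosome 3, 137372728 to 137372850, with a fold of 5.89 and a score of 169.7. It lay 35.2% along a span of 90008 bases, 31650 bases from the annotated start. Egfl7, a protein that endothelial cells secrete into the matrix and that guides vessel tube formation, had a site of 185 bases at chromosome 2, 26583864 to 26584048, with a fold of 5.99 and a score of 119.98. The site began 1 base before the second annotated start of the gene, at 26583865, as the capitals above show. Ranked by strongest fold, Emcn stood at percentile 22.8 and Egfl7 at 24.5 among genes with a site, the lowest of the 7.

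Egfl7 is also the host gene of miR-126, a microRNA typical of endothelium, and the mature sequence is given to place the site relative to it. The seed, bases 2 to 8, is in capitals, and the sequence is from RefSeq (GRCm38.p6).
mmu-miR-126a-3p: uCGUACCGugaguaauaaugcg
The hairpin lies at chromosome 2, 26591357 to 26591429, on the plus strand. The m6A site ended 7309 bases before it, and 0 sites on Egfl7 lay at the hairpin.

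**Figure D3:**
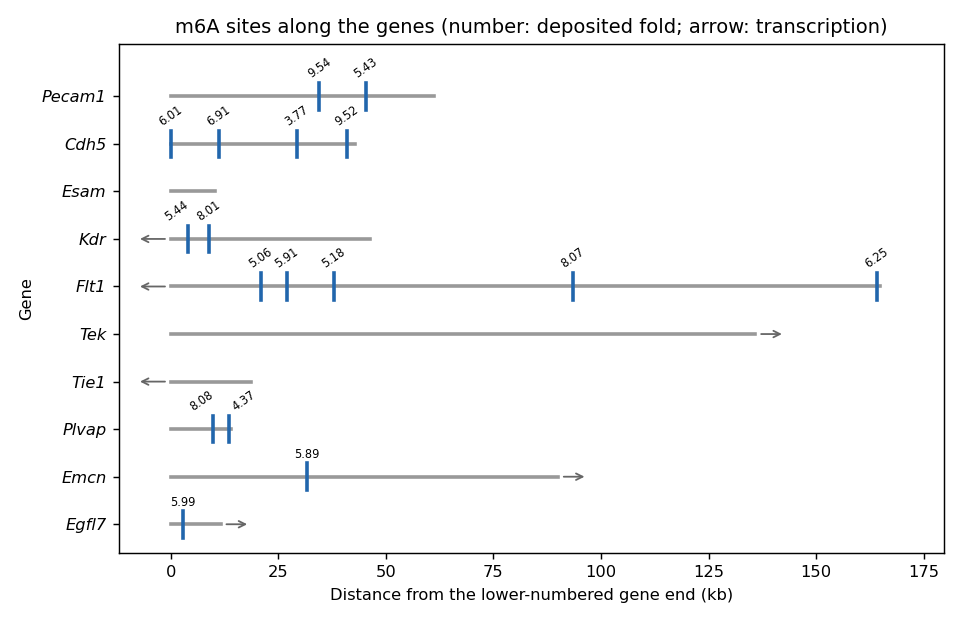
Positions of the m6A sites (blue ticks at the lower-coordinate edge of each site, labelled with the deposited fold) along each gene span (grey line), in kb from the end of the gene with the lower coordinate; arrows give the direction of transcription for the 6 genes whose strand the RefSeq table gives. Flt1 has a site at its start and others along its length, both Kdr sites lie in the last part of the gene, and Cdh5 has a site near each end.

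The position along the gene could be set against the list for the 4 genes with sites and a strand in the RefSeq table (Kdr, Flt1, Egfl7 and Emcn). Their 9 sites lay at a median of 76.9% of the span from the start end, against 49.7% for the 7197 sites of genes with a strand. In the last 20% of the span were 4 of the 9 (44.4%), against 23.7% of all such sites, and in the first 20% was 1 (11.1%), against 31.2%. Of the 9 sites, 5 are on Flt1, so the median largely describes that gene. An edge within 1 base of an annotated start was found on 2 of the 9, the Flt1 and Egfl7 sites, against 13.0% of all such sites. The strand of Cdh5, Plvap and Pecam1 was not in the table. As background, Cdh5 is transcribed towards higher coordinates, and Plvap and Pecam1 towards lower ones. With these directions, the Cdh5 site 12 bases inside the gene and the Plvap site 37 bases inside it lie at the start end. Exons were not in the annotation used, so sites are not assigned to coding sequence or untranslated regions.

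The start windows were also searched for short motifs, as a description of the letters. GGAAG, a core sequence of ETS factors, which control many endothelial promoters, was counted with its reverse complement CTTCC over the 300 bases of each RefSeq window. The table holds 8 windows for 6 of the 10 genes, 3 of them for Egfl7, and none was used for Pecam1, Cdh5, Plvap and Esam. At least 1 match was present in 6 of the 8 windows, against 71.4% of all 32851 windows. Tie1 had 7 matches, Egfl7 had 4 at its first start and 3 at its second, Flt1 had 3, Emcn 2 and Kdr 1, and Tek and the third Egfl7 start had 0. The tetramer GGAC, a core letter sequence of the m6A consensus, was counted on the strand of the gene in the 50 bases after each start. It was present in 4 of the 8 windows, against 18.9% of all windows. Flt1 had 1 match, inside the m6A site and past the bases printed above, and the second Egfl7 start had 0. Matches of both motifs can share no more than an edge letter.

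Peak numbers gave a further view of the list. The numbers rise with position without a break on every chromosome and reach 90659, whereas the list holds 8987 sites, so absent numbers were read as peaks that were numbered but are not in the list analysed here. Between the first and last listed site of Flt1, 17 numbers were absent, against 5 for Cdh5, 2 for Pecam1 and 0 for Kdr and Plvap. Between the listed neighbours on either side of the genes without a site, 20 numbers were absent around Tek, 9 around Tie1 and 17 around Esam. These stretches reach well beyond the genes, so it is not known whether an unlisted peak lies on Tek, Tie1 or Esam.

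Taking the strongest site per gene, the 7 endothelial genes had a median fold of 8.07, next to 8.1 over all 4953 genes with a site. The strongest folds of Pecam1 (9.54) and Cdh5 (9.52) lay above that median. Those of Plvap (8.08), Flt1 (8.07) and Kdr (8.01) lay just below it, and those of Egfl7 (5.99) and Emcn (5.89) near the lower quartile of 6. The 7 genes thus stood between percentiles 22.8 and 63.1, below the upper quartile of 11.65.

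Other genes of the vessel wall were set beside the 10 in 6 lists with 110 distinct genes, none of them a member. A site was found on 47 (42.7%), against 22.2% of protein-coding genes, with a median strongest fold of 7.63. With all sites counted, the share was above 22.2% in each of the 6 lists. Some of these sites were weak. Among the Notch genes only Jag2, with a score of 113.86, kept a site at a p of at most 1e-10.

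Among VEGF, angiopoietin and other vessel ligands, 3 of 10 had a site, a share near the 22.2% of all protein-coding genes and the 29.1% of those of similar span. Vegfa, the VEGF that drives islet vascularisation, had a fold of 10.28 on a site of 1087 bases. Vegfb, a ligand of Flt1, had a fold of 9.95, and Angpt2, the angiopoietin that destabilises vessels, had a fold of 5.44. Vegfc, Vegfd, Pgf and Angpt1 were among the 7 without a site. Vegfa is made by many cell types, beta cells among them.

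Other vascular receptors had a site on 10 of 17 genes (58.8%), with a low median fold of 5.91. The netrin receptor Unc5b (10.35) and Ramp2, the partner of the adrenomedullin receptor (10.08), were strongest, followed by the adhesion receptor Adgrf5 (7.41), Calcrl, with which Ramp2 pairs (6.31), the semaphorin receptor Plxnd1 (5.96) and the VEGF co-receptor Nrp2 (5.86). The sites of this list all had an FDR of 100%. At the site of strongest fold, only Unc5b, Ramp2 and Adgrf5 had a score of at least 100. Flt4, Eng, Bmpr2 and S1pr1 were among the 7 without a site. Junction and caveola genes had a site on 8 of 17 (47.1%), with the highest median fold of the 6 lists, 11.325. They were led by Ccm2 (16.51), whose loss causes vascular malformations, p120-catenin Ctnnd1 (12.3), which binds the tail of VE-cadherin, the caveola coat protein Cavin1 (11.82), the tight junction protein Ocln (11.44) and its scaffold Tjp1 (11.21). Cldn5, Jam2, Jam3 and F11r were among the 9 without. Several genes of this list are also expressed in epithelial and endocrine cells.

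Endothelial transcription factors had a site on 7 of 22 genes (31.8%), near the 29.1% of protein-coding genes of similar span, with a median fold of 7.59. The strongest were Mef2c (15.14), the hypoxia factors Hif1a (11.76) and Epas1 (7.59, 4 sites), the flow-responsive factor Klf2 (7.66), Gata2 (4.89) and Sox18 (4.85). The ETS factors Erg, Fli1, Ets1 and Ets2 were among the 15 without a site. Notch genes of vessels had a site on 6 of 14 (42.9%), with a median fold of 6.28: the ligands Jag2 (8.15), Jag1 (7.02) and Dll1 (5.1), the receptor Ephb4 (6.81) and its ligand Efnb2 (5.75), which mark veins and arteries, and the target Heyl (5.72). Notch1, Notch4, Dll4 and Hey1 were among the 8 without.

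Other surface and secreted genes of endothelium had a site on 13 of 30 (43.3%), with a median fold of 8.42. The collagen IV chains of the basement membrane had the most sites, 11 on Col4a1 (strongest fold 18.65) and 12 on Col4a2 (13.84). Esm1, a secreted proteoglycan of tip cells, had a fold of 15.15, Gpihbp1, which holds lipoprotein lipase on the capillary wall, 13.67, the endothelin-converting enzyme Ece1 10.59, and the sialomucin Cd34 8.56. Vwf, Mcam, Cd93 and Clec14a were among the 17 without.

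**Figure D4:**
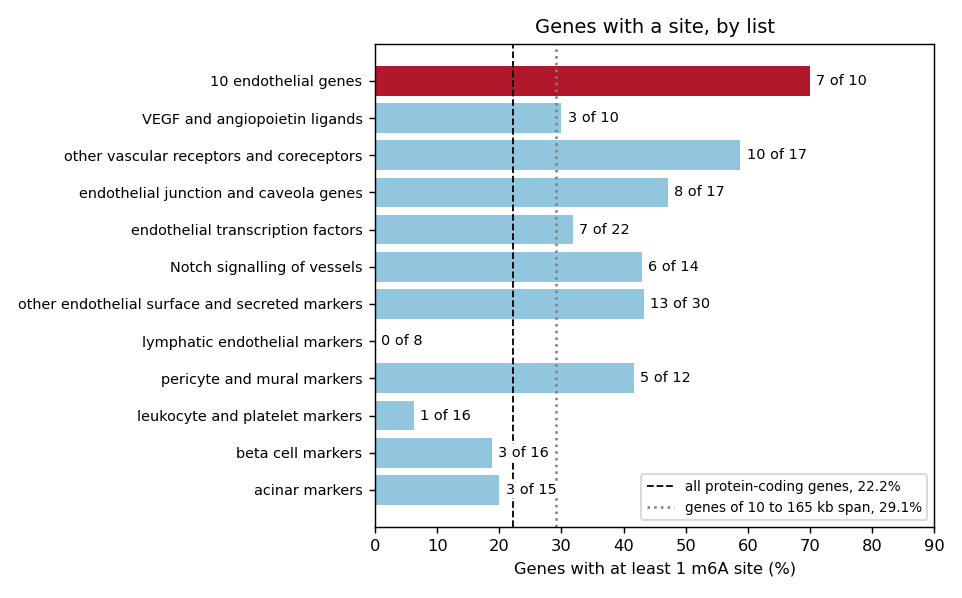
Share of genes with at least 1 m6A site (x axis, percent) in the 10 endothelial genes (red) and in other lists (blue), with the count of genes beside each bar; lines mark all protein-coding genes (22.2%) and those of similar genomic span (29.1%). All 6 vascular lists and the mural list lie above the dashed line, and the lymphatic, leukocyte, beta cell and acinar lists below it. Sites of any score or FDR are counted.

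Markers of other cells in the islet preparation give the setting of these values. Lymphatic endothelial markers had a site on 0 of 8 genes, with Lyve1, Prox1, Pdpn and Flt4 among them. Leukocyte and platelet markers, relevant because Pecam1 and Esam are also made there, had a site on 1 of 16 (6.25%), C1qc with a fold of 5.5, and Ptprc, Cd68, Adgre1 and Csf1r had none. Mural cell markers had a site on 5 of 12 (41.7%). The strongest were the smooth muscle myosin Myh11 (16.61, 11 sites) and the potassium channel subunit Abcc9 (10.08). The proteoglycan Cspg4 (5.07), the PDGF receptor Pdgfrb (4.39) and Rgs5 (4.06) followed. Cspg4, Pdgfrb and Rgs5 had 1 weak site each, with scores of 52.32, 52.55 and 54.38 and an FDR of 100%. Only Myh11 and Abcc9 kept a site at a score of at least 100. Kcnj8, Acta2, Des and Anpep were among the 7 without a site. The list of beta cell markers had a site on 3 of 16 (18.8%), Chga (27.48), Chgb (21.38) and Mafa (12.52), all above 9.54, the highest fold of the 10 endothelial genes. Of these, Chga and Chgb are also made by other endocrine cells. In the wider vascular lists, genes such as Col4a1 (18.65) and Ccm2 (16.51) exceeded Mafa in fold. In score Col4a1 equalled Mafa (3100, FDR 27.16%), whereas Ccm2 lay far below it (236.72, FDR 100%). Acinar markers had a site on 3 of 15, among them Amy2b (2.98) and Pnlip (2.87), all below the strongest fold of every endothelial gene with a site. The low fold of Amy2b came with a high score of 1302.57 and an FDR of 48.93%. The beta cell and acinar shares lie close to the 22.2% of all protein-coding genes. The genes of these lists, and of the leukocyte and platelet list, are also shorter. Median spans were 7919 bases for beta cell, 9513 for acinar and 6388 for leukocyte and platelet markers, against 44569 for the 10 endothelial genes. The list holds no expression values, so the presence of endothelial cells could not be checked from marker levels, and which cells the RNA of each gene came from was not tested.

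**Figure D5:**
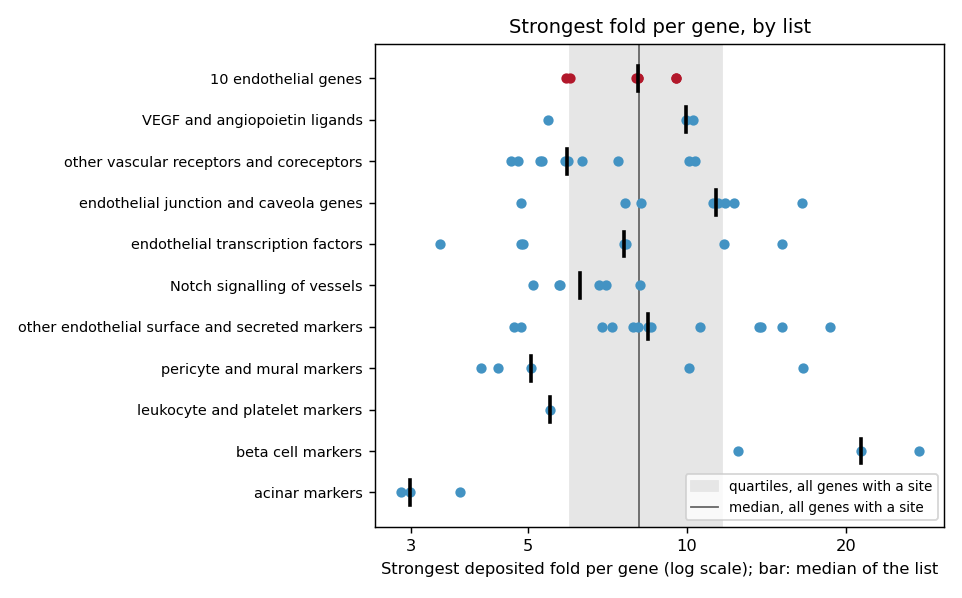
Strongest deposited fold per gene (x axis, linear ratio on a log scale) for every gene with a site in each list; black bars are list medians, and the band and line show the quartiles (6 to 11.65) and median (8.1) of all genes with a site. The 7 endothelial genes (red) run from 5.89 to 9.54, between the acinar markers (median 2.98) and the beta cell list (from 12.52). Those 2 lists have only 3 genes with a site each. The beta cell list includes Chga and Chgb, which other endocrine cells also make.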

How the data were processed

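Per the labels' protocols, m6A immunoprecipitate and input libraries of islet RNA were made with a directional kit and sequenced as 150 base paired-end reads, and sites were called with MACS and assigned to transcripts with the authors' own scripts. The submitters' processing notes name cutadapt 1.9.3, HISAT2 2.0.4 and the mouse build mm10, whereas the library protocol names a human build. Of the 8942 sites whose gene matched the RefSeq annotation of GRCm38.p6, 8924 overlapped the span of that gene, so coordinates are given as GRCm38. The score (10 times the negative log10 of the p-value), the fold (a linear ratio) and the FDR in percent were deposited by the authors and were not recomputed. Both deposited score columns were identical in all sites. End minus start equalled the deposited length in all 8987 sites, and starts were therefore taken to count from 0.

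From these values, sites were matched to genes by identifier (8822 sites), then by symbol or synonym, with 45 unmatched. Counts, shares, medians and percentiles were computed in Python 3.11.15 with pandas 2.3.3, after the functions were tested on simulated data. All 10 genes, and from each other list every gene with a site up to 6, or otherwise the 6 whose strongest fold was largest, and at most 4 without a site in list order, were named, except for a few that are not reported here. The members and lists were chosen with earlier results of these data known. Alternatives were a fold of at least 5, a p of at most 1e-10, an FDR below 100%, sites wholly within the gene span, the median fold per gene, merging of sites within 100 bases and a background of similar genomic span. A restriction to sites assigned to RefSeq transcripts was chosen after seeing the data. No reads were used, so depth is unknown and no interval is given. The planned m6A consensus search over whole sites was not run because no genome sequence was used here.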

Additional observations from a re-analysis of the deposited data

How the results depend on the processing

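A site remained on 7 endothelial genes with a fold of at least 5, with a p of at most 1e-10, within the gene span and on RefSeq transcripts, leaving 15, 12, 17 and 16 of their 17 sites, and the median strongest fold stayed 8.07. The median over all genes with a site was 8.64 with a fold of at least 5 and 9.755 with a p of at most 1e-10, in place of 8.1, so under these limits the endothelial genes lay further below it. With an FDR below 100%, which keeps 2310 sites by construction, 3 genes (Pecam1, Cdh5 and Plvap) kept 4 sites, with a median strongest fold of 9.52 against 13.22 over all genes, and the share of protein-coding genes with a site was 7.29%. With the median fold per gene the median over the 7 genes was 6.225, against 7.16 over all genes. Of the 110 genes of the wider vascular lists, 27 had a site at a p of at most 1e-10, and 15 at an FDR below 100%, in place of 47. The shares of all protein-coding genes fell too, to 15.4% and 7.29%, in place of 22.2%. Merging sites within 100 bases changed nothing because no 2 sites were that close. No paired analysis was possible because there is 1 library per group. Without replicates or depth, no fold carries an error.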
